A study of Rattus norvegicus with 9 samples.

Results

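The genes examined here are the ER stress and CREB-linked stress genes Calr, Crebrf, Chac1 and Cebpb. They were named beforehand by symbol and gene ID, and each was looked up in the transcript assembly of every library. Of the 4 genes, 3 were found among the 26249 genes and gene-like units of the deposited assemblies. Cebpb (ENSRNOG00000057347) was not analysed here, since no transcript was paired with this ID.

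The cells were rat bone marrow mesenchymal stem cells (MSCs) at passage 3, taken from Sprague-Dawley rats of 4 weeks of age. The study made 3 groups of 3 libraries. The first was untreated MSCs, the second was neural progenitor-like cells (NPCs) induced from MSCs for 3 days with EGF and bFGF, and the third was NPCs induced for the same time with EGF, bFGF and IGF-1. For the EGF and bFGF cells, the study's methods give 20 ng/ml of each factor, NeuroCult NS-A medium and ultra-low attachment plates. The sources used here do not state how much IGF-1 was used. None of the sequenced groups was kept in that medium and on those plates without the factors, so growth factors, medium and suspension culture cannot be told apart. All cells were primary cultures with no transgene. The study's methods call the MSCs of 3 rats, and the NPCs made from them, biological replicates, and do not describe the group with IGF-1. The labels give each library a replicate number and do not say which rat it stands for. The values are bulk values, in which a change in the mix of cells and a change per cell cannot be told apart.

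Proteins that enter the endoplasmic reticulum (ER) are folded there by chaperones, and unfolded protein in the ER sets off the unfolded protein response. Its sensors raise chaperone genes through ATF6 and XBP1, and lower general translation while raising ATF4 and its targets. Amino acid shortage and other stresses reach ATF4 by the same step, which is called the integrated stress response. Calr encodes calreticulin, a lectin chaperone of the ER lumen that also buffers calcium. Chac1 encodes an enzyme that breaks down glutathione and is a target of ATF4. Crebrf encodes the CREB3 regulatory factor, a protein that holds back CREB3, a membrane-bound factor of the CREB family. Cebpb encodes C/EBPβ, a bZIP factor that can pair with ATF4.

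The proximal promoters of the 3 measured genes are shown because ER stress and CREB-linked factors are known to read short elements of the kind searched for here. They are the 250 bases before the start site, 5′ to 3′ on the gene's strand, from RefSeq in the GRCr8 build, which held 1 for each of the 3 genes by symbol. Capitals mark the letters of an ER stress response element (ERSE, CCAAT, 9 bases of any kind, CCACG), a C/EBP-ATF element (TGATGNAA) or the short core of the cAMP response element (TGACG), on either strand.
Calr: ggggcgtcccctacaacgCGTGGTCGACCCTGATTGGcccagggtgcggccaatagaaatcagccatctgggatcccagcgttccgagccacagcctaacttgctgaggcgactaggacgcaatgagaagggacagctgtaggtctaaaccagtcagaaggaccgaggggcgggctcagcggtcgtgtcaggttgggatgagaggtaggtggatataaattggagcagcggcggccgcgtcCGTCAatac
Chac1: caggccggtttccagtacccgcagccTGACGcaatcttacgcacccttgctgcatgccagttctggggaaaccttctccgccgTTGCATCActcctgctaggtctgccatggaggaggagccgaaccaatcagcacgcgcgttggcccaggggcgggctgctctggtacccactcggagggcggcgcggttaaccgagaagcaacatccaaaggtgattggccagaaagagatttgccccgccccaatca
Crebrf: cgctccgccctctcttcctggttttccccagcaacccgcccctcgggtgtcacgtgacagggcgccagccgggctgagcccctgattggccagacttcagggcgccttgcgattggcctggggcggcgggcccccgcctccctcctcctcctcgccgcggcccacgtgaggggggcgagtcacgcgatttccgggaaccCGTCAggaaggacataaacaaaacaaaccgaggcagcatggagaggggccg

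These promoters lie at chr19:40213117-40213366 (plus strand) for Calr, chr3:126795881-126796130 (plus strand) for Chac1 and chr10:16966431-16966680 (minus strand) for Crebrf. The Calr promoter held an ERSE at bases -232 to -214, read on the minus strand, which 22 of 33469 rat promoters of this length held (0.066%). Its 2 outer parts are themselves a CCAAT box and a CCACG element. The Chac1 promoter held a C/EBP-ATF element at -167 to -160 on the minus strand, found in 3.40% of promoters. A TGACG core stood in all 3 promoters, at -9 to -5 in Calr, -224 to -220 in Chac1 and -51 to -47 in Crebrf, and 18.2% of all promoters held one. Neither the full cAMP response element (TGACGTCA, 1.59% of promoters) nor the UPRE core (TGACGTG, 1.54%) was in these 3 windows. A match is a run of letters only and was not tested as a binding site.

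Depth, estimated from the width of the FPKM intervals and not counted, was 36.8 to 48.1 M reads a library. The study gives counts of aligned reads for its NPC and MSC samples by a separate alignment. FPKM is fragments per kilobase of transcript and per M mapped fragments, and the FPKM of all isoforms of a gene were added. MSC libraries lay 139 to 162 units of Euclidean distance from induced libraries on the log2 scale, and libraries of the same group lay 75.1 to 91.7 units apart. Of the marker genes that could be named, the mesenchymal marker Vim was high in all 9 libraries, at 2560 to 3015 FPKM in MSCs and 629 to 879 FPKM in induced cells. The neural progenitor marker Nes stayed at or under 0.331 FPKM in every library, and Fabp7 was listed at 0 in all 9. The macrophage marker Cd68 was 0.226 to 0.502 FPKM in MSCs and 8.93 to 14.4 FPKM in induced cells, while the pan-leukocyte marker Ptprc was at most 0.0142 FPKM. Summed levels of the macrophage and other blood cell list, of which 2 markers could be named, were therefore 0.231 to 0.502 FPKM in MSCs, 9.54 to 11.4 FPKM in NPCs and 8.93 to 14.4 FPKM with IGF-1. The part of these markers in the results below was not tested.

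MSC replicate 3 stood apart in 1 respect that touches Calr. Each FPKM is deposited with a confidence interval. If the width of an interval stands for counting error only, it implies a number of reads, which can be set beside the FPKM. That reading of the width was not tested. The check took 969 transcripts that were the only isoform of their gene and had at least 5 FPKM in every library. The ratio of implied reads to FPKM and length was divided by the library median. It exceeded 1.5 for 95 transcripts (9.80%) in MSC replicate 3 and for 0 in each of the other libraries. Ratios under 0.5 were found in all 9 libraries, for 26 to 34 of these transcripts in each. Calr had a ratio of 2.17 in this library and of 1.06 to 1.11 elsewhere. Chac1, too low in some libraries to be among the 969, had a ratio of 0.82 there and of 0.99 to 1.14 elsewhere. The cause was not tested, and results that rest on this library are given with and without it.

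**Figure D1:**
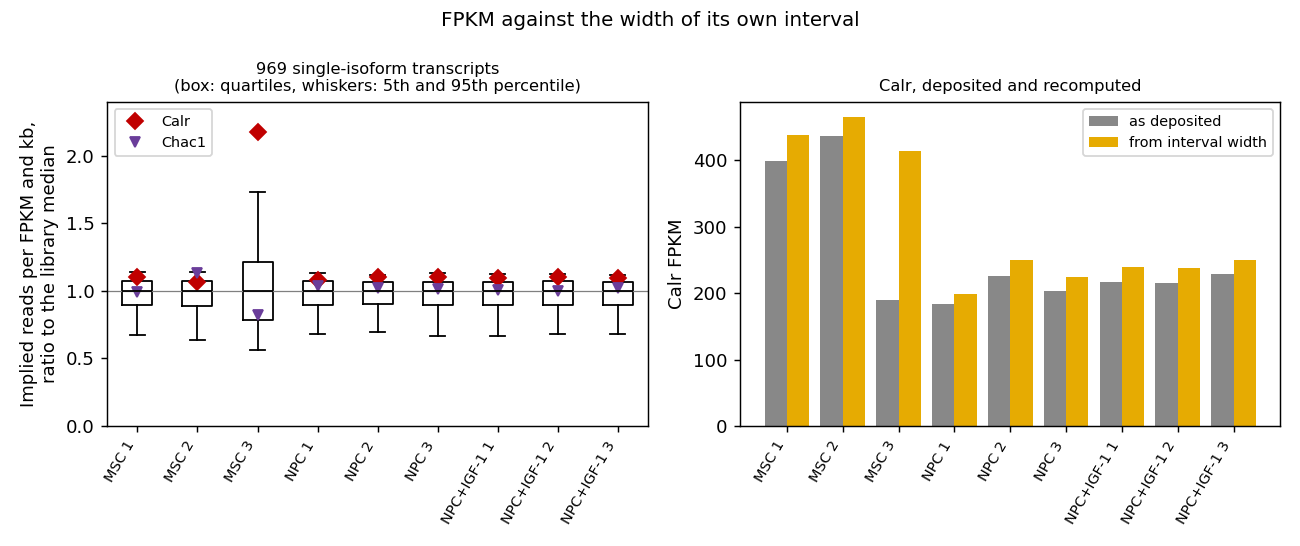
Left, the reads implied by each FPKM interval per FPKM and kilobase, relative to the library median. Boxes (quartiles) and whiskers (5th and 95th percentiles) are for 969 single-isoform transcripts of at least 5 FPKM in every library. Calr is shown as diamonds and Chac1, which is not among the 969, as triangles. Right, Calr FPKM as deposited and as recomputed from the implied reads; the bars part in MSC replicate 3, at 191 and 414 FPKM.

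Calr (ENSRNOG00000003029) lies at chr19:36931420-36937294 on the minus strand in the coordinates of the files, for which no source used here names a build. Its only isoform in all 9 libraries was the annotated transcript of 9 exons and 2844 bases, so no change of isoform was seen. Calr was among the abundant transcripts in all 3 groups. In MSCs the deposited levels were 398, 437 and 191 FPKM, a mean of 342 ± 133 FPKM (SD, n = 3). In NPCs they were 184, 226 and 204 FPKM (204 ± 21.0, n = 3), and with IGF-1 they were 218, 216 and 229 FPKM (221 ± 6.86, n = 3). The first and second MSC libraries lay above every induced library. MSC replicate 3 lay inside the range of the NPCs, so the groups overlapped as deposited. After division by the size factors used in the test, MSC replicate 3 was at 214.1 and the highest NPC library at 213.0, so that NPCs and MSCs were just apart on that scale.

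A gene was called when its adjusted p did not exceed 0.05 and its log2 difference was 1 or more in size, and Calr was not called in the test across all genes. Its log2 difference was -0.73 (SE 0.27, adjusted p = 0.0678) for NPCs against MSCs and -0.63 (SE 0.23, adjusted p = 0.0586) for NPCs with IGF-1 against MSCs. The 95% interval of the first ran from -1.34 to -0.11. Without MSC replicate 3 the difference of NPCs was -1.04 (SE 0.15, adjusted p = 0.00478), past both thresholds, and that of cells with IGF-1 was -0.95 (adjusted p = 0.000735), past the p threshold only. A single library thus decides the call for Calr in NPCs against MSCs, whereas with IGF-1 Calr was not called with or without that library. Quantile normalisation instead lowered the differences to -0.34 (adjusted p = 0.403) and -0.30 (adjusted p = 0.396).

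The intervals gave 49137, 62237 and 47724 implied reads for Calr in the MSC libraries and 21061 to 30403 in the induced libraries. Its deposited coverage was 942, 1233 and 453 in the MSC libraries and 411 to 583 in the induced libraries. Within each library the coverage of the members stood in a fixed proportion to their FPKM. The low coverage in MSC replicate 3 therefore restates the deposited FPKM and is not a second measure of Calr. FPKM recomputed from the implied reads were 439, 465 and 414 in MSCs, 199, 250 and 224 in NPCs and 239, 238 and 250 with IGF-1. On this scale the MSC libraries did not overlap with either induced group. With recomputed values the log2 difference was -1.03 (SE 0.13, adjusted p = 0.00131) for NPCs and -0.94 (SE 0.10, adjusted p = 0.000186) with IGF-1, a fall past both thresholds in the first comparison and under the fold threshold in the second. This recomputation was chosen after the values were seen, and it rests on the untested reading of interval widths as counting error.

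**Figure D2:**
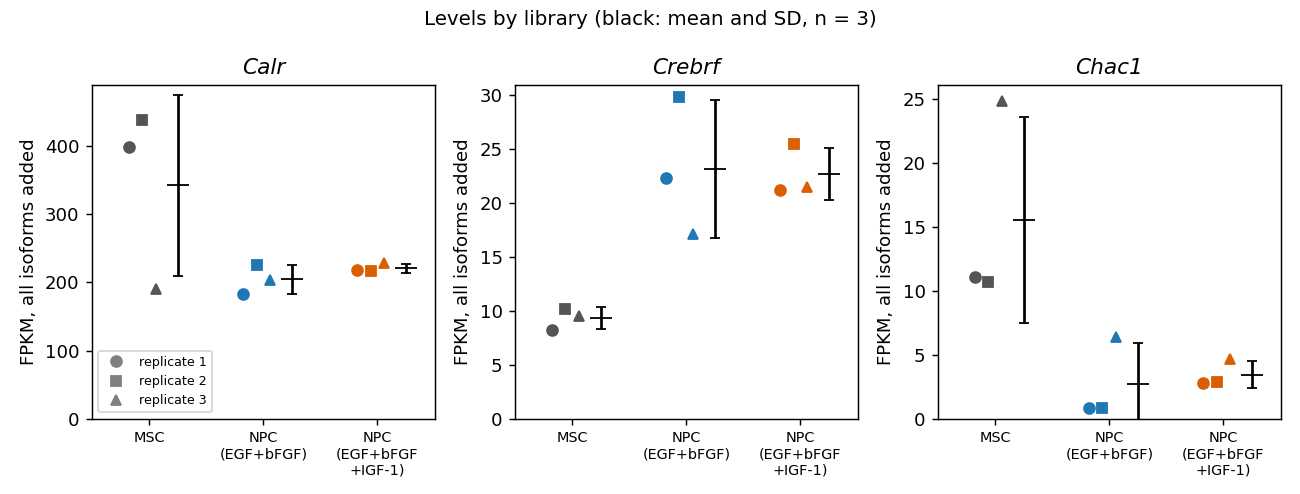
FPKM of Calr, Crebrf and Chac1 in each library, with circles, squares and triangles for replicates 1, 2 and 3 and the mean and SD of each group (n = 3) in black; the lower SD bar of Chac1 in NPCs is cut at 0. Crebrf is 17.2 FPKM or more in every induced library against at most 10.2 in MSCs, Chac1 is 6.40 or less against at least 10.7, and Calr overlaps through MSC replicate 3.

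Crebrf (ENSRNOG00000020769) lies at chr10:16590829-16621974 on the minus strand, with an annotated transcript of 8 exons and 1923 bases. It was the member that rose on induction. The summed levels were 8.19, 10.2 and 9.56 FPKM in MSCs (9.31 ± 1.03, SD, n = 3), 22.4, 29.9 and 17.2 FPKM in NPCs (23.1 ± 6.40, n = 3) and 21.2, 25.5 and 21.5 FPKM with IGF-1 (22.7 ± 2.41, n = 3). Every induced library lay above every MSC library. The log2 difference was 1.21 (SE 0.21, adjusted p = 0.00471) for NPCs against MSCs, a 2.31-fold higher level, and 1.20 (SE 0.19, adjusted p = 0.00126) for NPCs with IGF-1 against MSCs. Without MSC replicate 3 these were 1.29 (adjusted p = 0.0112) and 1.27 (adjusted p = 0.00311).

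Crebrf was also the member with more than 1 isoform. Unannotated isoforms were assembled in 8 of the 9 libraries, the exception being MSC replicate 1, and together took 32.2% to 66.8% of the gene's FPKM where present. In 7 of these 8 libraries there was 1 such isoform, which kept all 7 annotated introns. It ran 1285 to 3735 bases past the annotated 3′ end in induced cells and 1413 bases in MSC replicate 2. The annotated model has a first exon of 9 bases, and the assembled isoforms that began at the same exon extended it by 183 to 314 bases. In NPC replicates 1 and 2 the isoform instead had a further exon upstream, which placed its 5′ end at chr10:16644308, 22334 bases from the annotated one. MSC replicate 3 held 2 unannotated isoforms, 1 of which lacked the last annotated intron.

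The annotated transcript by itself was at 8.19, 6.61 and 3.18 FPKM in MSCs, 12.1, 20.3 and 10.6 FPKM in NPCs and 13.9, 15.6 and 14.1 FPKM with IGF-1. Its levels did not overlap between MSCs and induced cells either. When annotated transcripts alone were fitted, the NPC difference was 1.36 (SE 0.39, adjusted p = 0.0838), in the same direction but without a call. Assembly of an isoform depends on coverage, so its absence from a library does not show absence from the cells.

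**Figure D3:**
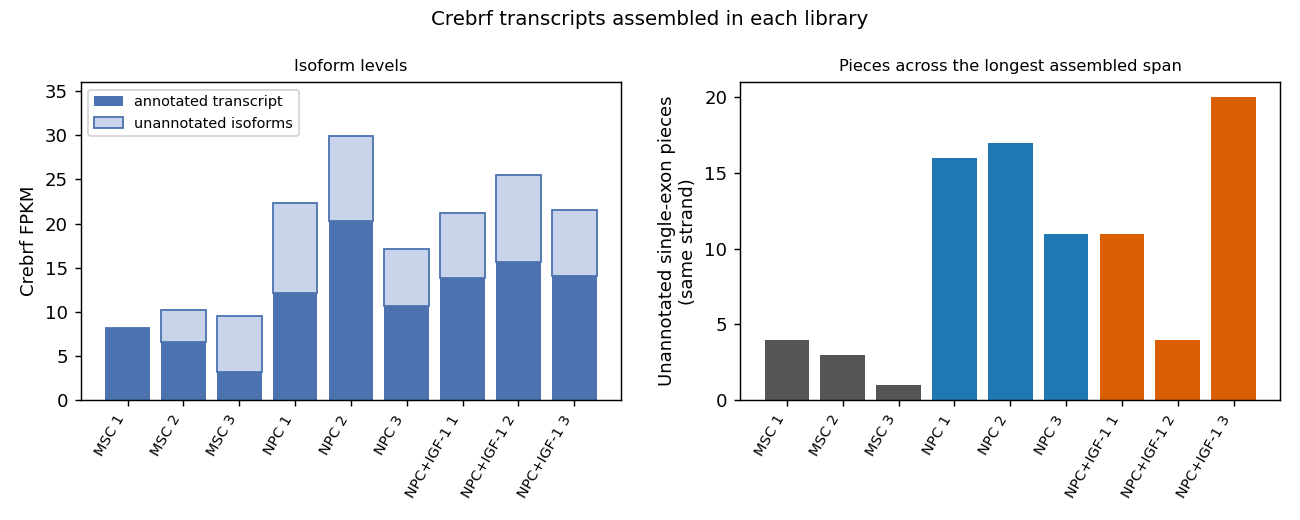
Left, Crebrf FPKM in each library, stacked as the annotated transcript and the sum of unannotated isoforms. Right, the number of unannotated single-exon pieces on the Crebrf strand across the longest assembled span of the gene, which is that of NPC replicate 1. MSC libraries hold 1 to 4 pieces, NPC libraries 11 to 17 and libraries with IGF-1 4 to 20.

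Chac1 lies at chr3:117711150-117714352 on the plus strand, and its annotated transcript of 3 exons and 1569 bases was its only isoform in the 9 libraries. It was lower in both kinds of induced cells. The levels were 11.1, 10.7 and 24.8 FPKM in MSCs (15.5 ± 8.05, SD, n = 3). They were 0.807, 0.840 and 6.40 FPKM in NPCs (2.68 ± 3.22, n = 3) and 2.78, 2.90 and 4.66 FPKM with IGF-1 (3.45 ± 1.05, n = 3). Every MSC library lay above every induced library, and within each group the library numbered 3 was the highest. The intervals gave 676 to 1293 implied reads in MSCs, 48.7 to 446 in NPCs and 179 to 295 with IGF-1.

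The log2 difference of Chac1 was -3.09 (SE 0.85, adjusted p = 0.0318) for NPCs against MSCs, an 8.51-fold lower level on the log2(FPKM + 0.1) scale. With IGF-1 it was -2.15 (SE 0.74, adjusted p = 0.0458), a 4.43-fold lower level. Both calls depended on single libraries. Leaving out NPC replicate 1, NPC replicate 2 or any 1 MSC library raised the adjusted p of the first to between 0.0643 and 0.1001, with differences of -3.34 to -2.60, whereas without NPC replicate 3 it was -4.04 with an adjusted p of 0.00143. Leaving out any 1 library with IGF-1 or any 1 MSC library raised that of the second to between 0.0620 and 0.137, with differences of -2.40 to -1.70. Without MSC replicate 3 the values were -2.64 (adjusted p = 0.0756) and -1.70 (adjusted p = 0.137).

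Among the 3 members with values, 1 rose and 1 fell in NPCs against MSCs. Over all 13696 genes tested, 11.7% rose and 9.89% fell, and the groups did not overlap for 51% of genes. In NPCs with IGF-1 against MSCs, again 1 rose and 1 fell, where 11.7% and 9.74% of 14228 genes did and 55.3% of genes did not overlap. Both comparisons share the MSC libraries. Crebrf and Chac1 also stand in the study's own list of differential genes of MSCs and NPCs, so their direction here is not independent evidence. The exact two-sided permutation test of 3 against 3 libraries, whose smallest possible p is 0.1, gave 0.1 for Crebrf and Chac1 in both comparisons, and 0.3 and 0.4 for Calr.

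Adding IGF-1 to EGF and bFGF did not give a detectable difference in any of the 3 genes. Calr differed by 0.10 (95% interval -0.42 to 0.62) on the log2 scale, Crebrf by -0.01 (-0.44 to 0.42) and Chac1 by 0.95 (-0.72 to 2.62), each with an adjusted p of 1 and with overlapping groups. NPC replicate 3 held the highest Chac1 level of both induced groups, and without that library the difference was 1.90 (adjusted p = 0.457). Over all 14228 genes 3 were called by limma, 0.0211% of them, and 661 had an unadjusted p under 0.05.

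The order of the group means was MSCs, NPCs with IGF-1 and NPCs for Calr and Chac1, and NPCs, NPCs with IGF-1 and MSCs for Crebrf. The 2 induced groups, neighbours in each order, did not differ beyond their spread. Per kilobase, Calr stood far above both other members in each library, and Crebrf was below Chac1 in the MSC libraries and above it in the induced libraries.

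Genes with the same roles were then counted, as far as a gene ID could be paired with a symbol. Of 28 listed ER chaperones and folding enzymes 6 were in reach, Calr among them. In both comparisons with MSCs 2 of the 6 fell and 0 rose, where 9.89% and 9.74% of all genes fell. With quantile normalisation 1 fell in NPCs and 0 with IGF-1, where 1405 of 13696 and 1432 of 14228 genes fell. The 2 that fell in the main fit were Calu and Dnajb11. Calu, a calcium-binding protein of the ER, was at -1.39 in NPCs (SE 0.14, adjusted p = 0.000447) and -1.27 with IGF-1. Dnajb11, a cochaperone of BiP, was at -1.17 in both. Canx, the membrane-bound relative of calreticulin, differed by -0.35 and -0.29 and was not called. Erp29, an ER protein of the thioredoxin fold, was at -0.57 (adjusted p = 0.0206) and -0.41 (adjusted p = 0.0329), under the fold threshold. Of these genes Canx, like Calr, had an ERSE in its promoter. The list median was -0.77 in NPCs and -0.55 with IGF-1, beside 0.03 and 0.05 for all genes. Calu was in reach through the study's list of differential genes alone, so the count and the median are not independent evidence of direction.

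MSC replicate 3 also touched this list. Sdf2l1, an ER resident protein singled out after its values were seen, was at 14.6, 14.3 and 2.95 FPKM in MSCs and at 3.38 to 7.77 FPKM in induced cells, and its ratio of implied reads to FPKM was 4.32 in MSC replicate 3 and 0.92 to 1.07 elsewhere. Without that library 4 of the 6 fell in NPCs, Calr and Sdf2l1 (-1.52, adjusted p = 0.0225) being added, and 3 of the 6 with IGF-1, Sdf2l1 being added. Recomputed FPKM gave the same counts of 4 and 3. Over all genes, 2559 of 13421 were called either way in NPCs without that library, and 2935 of 13707 with recomputed FPKM. With IGF-1 these were 2717 of 14026 and 3042 of 14237.

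Of 27 listed targets of ATF4 and the integrated stress response 6 were in reach. In NPCs 4 fell and 0 rose, where 9.89% of all genes fell and 11.7% rose. All 4 that fell were in reach through the study's differential list of the same cultures alone, so this count is not independent evidence of direction. Beside Chac1 these were Mthfd2, a mitochondrial enzyme of folate metabolism (-2.11, SE 0.35, adjusted p = 0.00378), Aars, the alanyl-tRNA synthetase (-1.49), and Slc7a11, the cystine transporter (-1.36). With IGF-1, Chac1, Mthfd2 (-1.83) and Aars (-1.15) fell, while Slc7a11 (-0.76, adjusted p = 0.174) was not called. Mthfd2 was at 61.1, 61.3 and 75.2 FPKM in MSCs, at 11.2, 12.6 and 27.8 FPKM in NPCs and at 19.3, 17.4 and 22.1 FPKM with IGF-1, again highest in NPC replicate 3 among the NPCs. Atf3, the factor induced downstream of ATF4, was at 0.34 (adjusted p = 0.351) in NPCs and at 0.78 (adjusted p = 0.0330) with IGF-1, the latter higher but under the fold threshold. Chac2, the relative of Chac1, was at -0.22 and -0.19 and was not called. Without MSC replicate 3, 3 of the 6 fell in NPCs and 2 with IGF-1, Chac1 being lost in both. In these fits 2559 of 13421 genes were called either way in NPCs and 2717 of 14026 with IGF-1.

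Of the CREB, ATF and C/EBP family list of 21 genes, Crebrf and Atf2 were in reach. Atf2 differed by 0.11 in NPCs and 0.21 with IGF-1 and was not called, at 11.2 to 13.6 FPKM in MSCs and 13.2 to 17.0 FPKM in induced cells. Of 13 sensors and transducers of the unfolded protein response 1 was in reach, Atf6b, at -0.22 and -0.12 without a call, and of 11 genes of ER-associated degradation 0 were.

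Immediate early genes that CREB can switch on gave 4 of 17 in reach, and all 4 were called in both comparisons with MSCs, 3 rising and 1 falling, where 11.7% of all genes rose and 9.89% and 9.74% fell. Egr1, Nr4a2 and Gadd45b were in reach through the study's differential list alone, so the count is not independent evidence. The zinc finger factor Egr2 rose by 2.42 (SE 0.46, adjusted p = 0.00653) in NPCs and 1.97 with IGF-1. The orphan receptor Nr4a2 rose by 1.95 and 1.75, and Egr1 by 1.59 and 1.31. Gadd45b, a growth arrest and DNA damage gene, fell by 1.92 and 1.63 on the log2 scale. Egr2 was at 2.03, 3.59 and 2.23 FPKM in MSCs and at 10.8, 9.36 and 30.9 FPKM in NPCs. These counts of 3 and 1 were the same without MSC replicate 3, and of all the listed genes 0 were called between the induced groups, where limma called 3 genes in all and 0 of these lists by any alternative tried.

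**Figure D4:**
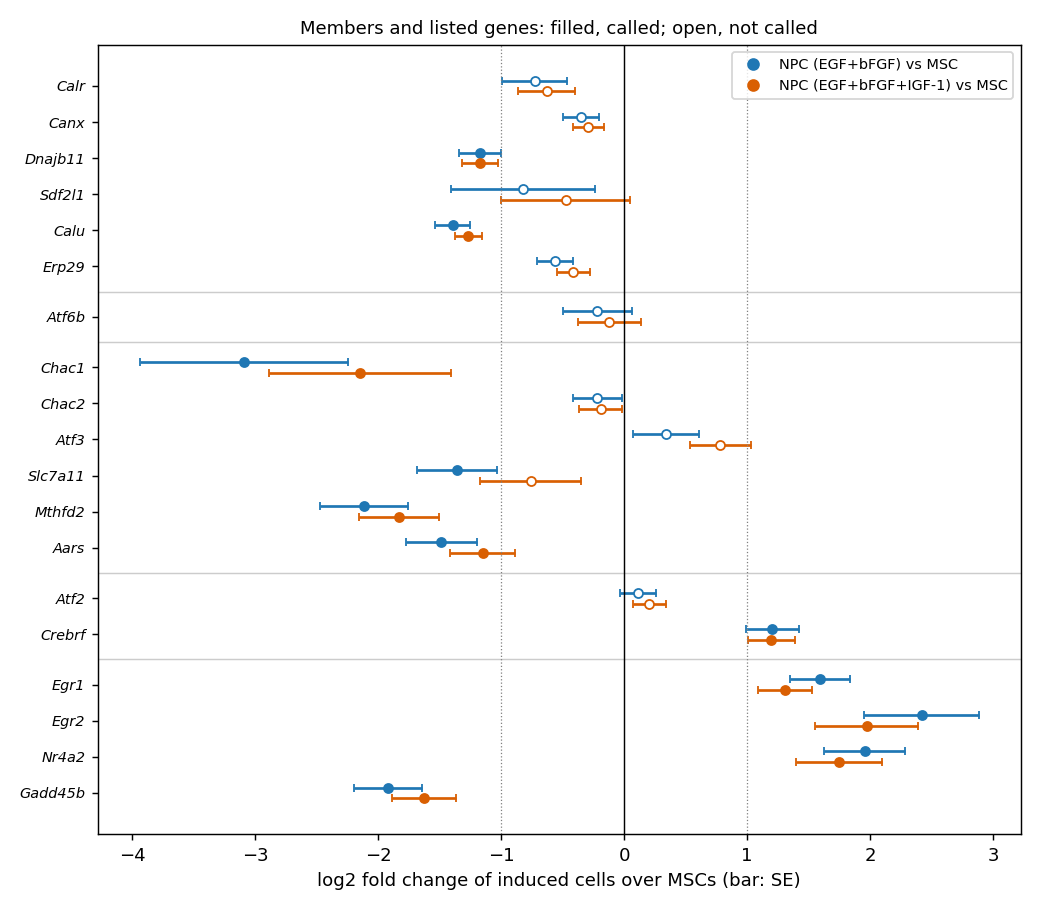
log2 fold change (point) and its SE (bar) of the members and the listed genes, for NPCs and for NPCs with IGF-1, each against MSCs, with lines between lists; filled points were called. Calr stands at -0.73 and -0.63 without a call, Chac1 at -3.09 and -2.15, and Crebrf at 1.21 and 1.20.

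For each member, the 3 named genes closest in pattern were taken by Pearson's r of log2(FPKM/size factor + 0.1) over the 9 libraries, among 1305 named genes with a mean of at least 1 FPKM. These are descriptions, since the libraries fall into groups. Chac1 was followed most closely by Slc7a1, the cationic amino acid transporter (r = 0.986), Aars (r = 0.974) and Adamts1, a secreted protease (r = 0.963). Slc7a1 was at 10.8, 10.7 and 13.6 FPKM in MSCs, at 2.78, 2.74 and 6.48 FPKM in NPCs and at 4.06, 4.48 and 5.53 FPKM with IGF-1, so that it shared with Chac1 the high library numbered 3 in each group. With the group means removed, r of Slc7a1 and Chac1 was 0.995.

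Crebrf was followed by RGD1566386 (r = 0.995), Mettl7a (r = 0.992) and Nr3c1, the glucocorticoid receptor (r = 0.988). Nr3c1 was at 12.7, 14.3 and 13.1 FPKM in MSCs and at 24.9, 32.9 and 23.5 FPKM in NPCs. In both genes NPC replicate 2 was the highest library.

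Calr was followed by Sars1, the seryl-tRNA synthetase (r = 0.986), and by the actin-binding proteins Coro1c (r = 0.981) and Lasp1 (r = 0.961). All 3 share its low value in MSC replicate 3. Sars1 was at 77.1, 89.8 and 32.9 FPKM in MSCs and at 34.0 to 42.3 FPKM in induced cells. The ratio of implied reads to FPKM in that library was 2.80 for Sars1 and 1.69 for Lasp1, against 1.03 to 1.18 for either in the other libraries, and Coro1c was not measured in this way. Between the members, r over the 9 libraries was -0.84 for Crebrf and Chac1, -0.78 for Calr and Crebrf and 0.51 for Calr and Chac1.

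**Figure D5:**
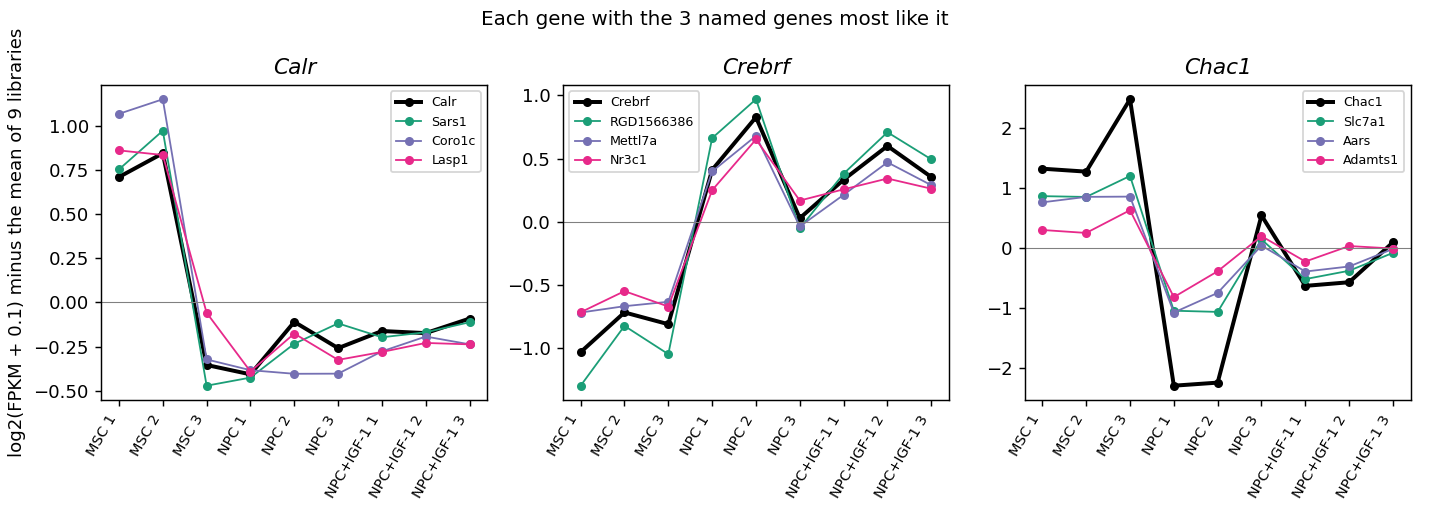
log2(FPKM + 0.1) of each member (thick black line) and of the 3 named genes most like it, each less its mean over the 9 libraries; lines only join the points of a gene. In the Calr panel all 4 genes drop at MSC replicate 3, and in the Chac1 panel NPC replicate 3 stands above the other NPCs.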

How the data were processed

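Stranded mRNA libraries from 300 ng of total RNA, 3 per group, were read single-end. The authors deposited 1 Cufflinks assembly per library, whose attribute text holds linear FPKM with an interval for each transcript; the deposited score column was not used. Tools in the submitters' processing notes were bcl2fastq, CASAVA 1.8, Bowtie2, TopHat, Cuffdiff and Cufflinks. No source used here names the build or annotation release of these assemblies; the paper's methods name rn6 and Ensembl, for a separate STAR and RSEM route. FPKM of a gene's annotated and unannotated isoforms were added, and single-exon pieces within introns were left out.

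Size factors by median of ratios scaled the libraries. Genes were tested with limma 3.58.1 (R 4.3.3; lmFit, then eBayes, robust and with a trend) on log2(scaled FPKM + 0.1) among those with at least 0.1 FPKM in 3 libraries and a transcript of at least 300 bases. NPCs and MSCs were fitted on 6 libraries and comparisons with IGF-1 on 9. Calls needed a p, adjusted by Benjamini-Hochberg over all genes tested, no higher than 0.05 together with a log2 fold change of 1 or more in size. The fit was tested on simulated data.

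Depth came from interval widths, taken as 4 FPKM divided by the square root of the reads, and covers counting error only. For the recomputed FPKM, this was done for the 2170 transcripts that were the only isoform in all 9 libraries, and each value was scaled to the library median.

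Symbols came from tables of the paper, which paired 2452 gene IDs of the files with a name; part of these is a list in gene ID order and part is the study's list of differential genes. Up to 4 further genes of each list were named, called genes by size first, then by level, except Sdf2l1. The genes and lists were chosen with earlier results of these data known. Alternatives were other pseudocounts, filters, scalings, fits, annotated transcripts only, a replicate block, leaving out each library and the recomputed FPKM. Other steps used Python 3.11.15.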

Additional observations from a re-analysis of the deposited data

Results flagged for a closer look

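Across the longest assembled span of Crebrf, from base 16587094 to 16644308 of chromosome 10, unannotated single-exon pieces on the gene's strand were counted, which no comparison above uses. This span is that of the isoform assembled in NPC replicate 1, so the window was set by an induced library. The NPC libraries held 16, 17 and 11 pieces and the libraries with IGF-1 held 11, 4 and 20. The MSC libraries held 4, 3 and 1, so every induced library but NPC with IGF-1 replicate 2 lay above the MSC range of counts. The pieces covered 3182, 3016 and 2361 bases in NPCs, 3620, 1099 and 6143 with IGF-1, and 2867, 2281 and 2184 in MSCs. In bases covered, both induced groups thus overlapped with the MSCs. The other strand held 0 pieces in each library. Within the annotated span alone, the counts were 6, 8 and 6 in NPCs, 1, 0 and 8 with IGF-1, and 1, 0 and 0 in MSCs. Over the whole assembly unannotated transcripts were also more numerous in induced libraries, at 64618 to 90998, than in MSC libraries, at 28763 to 36570. Their part in the Crebrf counts was not tested.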

How the results depend on the processing

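Of 171 values of the members under alternatives, 147 kept their direction and their side of the thresholds. With annotated transcripts alone, Crebrf (1.36) and Chac1 (-2.96) lost their calls in NPCs against MSCs, as did Chac1 with IGF-1 (-2.05). Chac1 with IGF-1 also lost its call with a pseudocount of 0.01 (-2.18), without a filter (-2.15) and without a trend (-2.15). Calr gained its call in NPCs with recomputed FPKM (-1.03), an alternative added after the data were seen. Crebrf between the induced groups changed sign without rescaling (0.0070) and with annotated transcripts (0.028), never with a call. Leaving out a library moved Calr from -1.04 to -0.55 in NPCs and from -0.95 to -0.45 with IGF-1, Crebrf from 1.04 to 1.39 and from 1.07 to 1.27, and Chac1 from -4.04 to -2.60 and from -2.40 to -1.70. Between the induced groups it moved Calr from 0.03 to 0.15, Crebrf from -0.19 to 0.17 and Chac1 from 0.47 to 1.90. Quantile normalisation gave -0.34 and -0.30 for Calr. The cause of these changes was not tested.

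Counts of genes called either way were 2957, 3044 and 3 in the 3 comparisons. A pseudocount of 1 gave 1715 and 1758 against MSCs, and annotated transcripts alone 1191, 1499 and 19. Between the induced groups the count was 5 without a filter, 5 without a trend and 1 with the replicate block. Leaving out a library gave 2255 to 2860, 2717 to 3063 and 1 to 10. Quantile normalisation gave 1269 rising and 1405 falling genes in NPCs, and no rescaling 1719 and 1245, beside 1602 and 1355.

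The NPCs with EGF and bFGF were made from the MSCs of the same rats, but no source used here says that equal numbers mark 1 rat. Deviations of same-numbered libraries correlated at -0.0956 to 0.103, under the limit of 0.1 for most pairs, so the block was kept as an alternative. With the replicate block Calr was -0.73 and -0.63, Crebrf 1.21 and 1.20 and Chac1 -3.09 and -2.15, with adjusted p of 0.0761 and 0.0727, 0.0142 and 0.00238, and 0.00488 and 0.00717, and no member changed its call. Counts with the block were 2861, 3002 and 1. The level of Chac1 rests on 48.7 implied reads in each of NPC replicates 1 and 2. Their intervals were 0.58 to 1.04 and 0.60 to 1.08 FPKM, beside a level of 6.40 FPKM in NPC replicate 3.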
